A study of Homo sapiens with 2 samples.

Results

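The keratin gene family was taken as every gene of the deposited tables whose symbol is KRT followed by a number and at most 1 further letter, which leaves out the keratin-associated KRTAP genes. This rule found 55 genes among the 20263 listed, 29 of type I and 26 of type II, and 16 of them reached 1 CPM, a count scaled to library size, in at least 1 library. The libraries came from Cal-27, an established line of oral squamous cell carcinoma from the tongue. One culture was stably transduced with a scrambled control shRNA (sh-scramble) and the other with an shRNA against the kinase gene HIPK2 (GV-248-HIPK2-sh), and both were grown in the same regular medium. Each group held 1 library. Whether a culture was a pool or a clone, and how many shRNA sequences were used, is not stated in the labels. There is therefore no replicate check, no test was run, and every difference compares these 2 libraries and not the conditions.

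The libraries held 28064923 and 26450251 counts. The targeted gene HIPK2 had 110 counts in the library labelled control shRNA and 218 in that labelled HIPK2 shRNA, a ratio of 2.01 (1.59 to 2.55), while its deposited TPM, a level per transcript length, was 1.63 and 0.873. Its counts contradict the label while its TPM does not, so the second sample is called the HIPK2 shRNA-labelled library. The count per TPM of HIPK2, which follows the transcript length used by the authors, was 4.01 times as large there as in the control. That value is relative to the median gene at 1 CPM or more, and over those genes the 5th to 95th percentile was 0.771 to 1.28. The cause was not tested. Values in pairs give the control first. Counts were scaled to CPM with TMM factors, and ratios are given as that library over the control. Brackets hold 95% exact intervals, which cover counting error only.

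Keratins are the intermediate filament proteins of epithelial cells. Each filament is built from pairs of 1 type I (acidic) and 1 type II (basic to neutral) keratin, and the pair in use marks the kind of epithelium and its state of differentiation. In stratified epithelium such as that of the tongue, KRT5 and KRT14 mark the basal layer, other pairs replace them in the suprabasal layers, KRT6, KRT16 and KRT17 appear in wounds and hyperproliferation, and KRT8 and KRT18 are the pair of simple epithelia. The type I genes lie in 1 cluster on chromosome 17 and the type II genes in 1 cluster on chromosome 12, where KRT18 is the only type I gene.

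Keratin mRNA was lower in the HIPK2 shRNA-labelled library as a sum, and most of the expressed members were lower by a small amount. All 55 genes together took 273848 control counts, 0.976% of the library (0.972 to 0.979), and 212140 counts in the other, 0.802% (0.799 to 0.805). After scaling, the sum was 1.27-fold lower (1.27 to 1.28). Of the 16 expressed keratins, 14 were lower and 2, KRT16 and KRT6C, were higher, where 50.0% of all 11813 expressed genes were lower. With total count scaling 13 were lower and KRT6B was also higher, where 44.3% of the 11811 expressed genes were lower. In the authors' TPM 12 were lower and KRT5 and KRT6B were also higher, where 42.2% of the expressed genes were lower. In bulk RNA, fewer cells that express a gene and less RNA per cell cannot be told apart.

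With log2 of (CPM + 1) and a rule of size of 2-fold, which is not a test, KRT14 and KRT7 were past 2-fold lower and 0 keratins were past 2-fold higher. Over all expressed genes 2.87% were past 2-fold lower and 3.26% past 2-fold higher. The median log2 ratio of the 16 keratins was -0.36, that of the 6 expressed type I genes -0.36 and that of the 10 type II genes -0.28, beside 0.00 for all expressed genes. By class, the median was -0.48 for the 3 basal keratins, -0.12 for the 8 expressed suprabasal keratins and -0.49 for the 3 expressed simple keratins. With the counts of related genes summed, KRT14 was counted under KRT17, outside the basal class. The median of the 2 basal keratins left, KRT5 and KRT15, was then -0.30. Over the alternative settings the type II median ran from -0.42 to -0.14 and the suprabasal median from -0.26 to -0.03. Levels of the expressed members in the control ran from 1.19 TPM (KRT78) to 2923 TPM (KRT8), so a few genes set the sum.

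**Figure D1:**
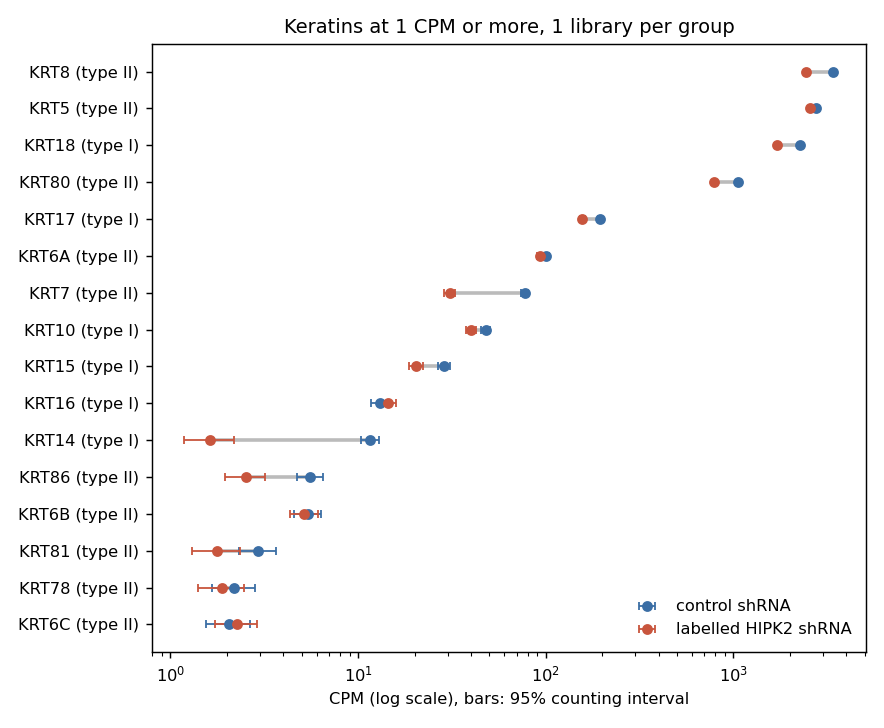
Level of each of the 16 expressed keratins in CPM (log axis) in the control library (blue) and the HIPK2 shRNA-labelled library (red), 1 library each, with 95% counting intervals. The widest gaps are those of KRT14 (11.6 and 1.63 CPM) and KRT7 (77.3 and 30.8 CPM), while KRT5, KRT6A, KRT6B and KRT16 lie close together.

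Among the basal keratins, KRT5 differed little between the libraries while its partner KRT14 had the largest difference of the expressed keratins. KRT5 (ENSG00000186081, chromosome 12, 52514575 to 52520687, minus strand, GRCh38), the type II keratin of basal cells, had 75882 and 69106 counts. Its level was 2766 CPM (2746 to 2786) against 2554 CPM (2535 to 2573), 1.08-fold lower (1.07 to 1.09). In TPM its direction was the opposite, at 1624 and 1765, a ratio of 1.09. The count per TPM of KRT5, which follows the transcript length used by the authors, was 0.911 times as large in the HIPK2 shRNA-labelled library as in the control, relative to the median expressed gene (5th to 95th percentile over expressed genes 0.771 to 1.28). KRT5 therefore has no single direction across the units, and in both units it differed less than KRT8 and KRT18.

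KRT14 (ENSG00000186847, chromosome 17, 41582279 to 41586921, minus strand), the type I partner of KRT5, had the lowest ratio of the 16. It had 318 and 44 counts, or 11.6 CPM (10.4 to 12.9) and 1.63 CPM (1.18 to 2.18). The level was 7.13-fold lower (5.19 to 10.0), and in TPM, at 9.77 and 1.45, it was 6.73-fold lower. KRT15 (ENSG00000171346), a type I keratin of basal cells, had 786 and 550 counts, 28.7 and 20.3 CPM, and was 1.41-fold lower (1.26 to 1.57), and in TPM, at 13.6 and 9.33, 1.46-fold lower. The 3 basal genes were thus all lower in CPM, by amounts from 1.08-fold to 7.13-fold. Their summed CPM, which is nearly all KRT5, was 1.09-fold lower (1.08 to 1.10), and their summed TPM went from 1647 to 1776.

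KRT14 is a close relative of KRT16 and KRT17, so the letters that tell the 3 apart bear on its count. Coding sequences in GENCODE 29 were 85.2% identical between KRT14 and KRT16, 78.4% between KRT14 and KRT17 and 72.6% between KRT16 and KRT17. Of the 1513 windows of 150 bases, the read length, in the KRT14 transcript, 9 (0.595%) also occur letter for letter in KRT16, and of the windows of 50 bases 23.8% occur in another keratin gene or pseudogene. The 90-base coding window inside 1 exon in which KRT14 has the most letters of its own is printed here, 5′ to 3′ on the coding strand, with capitals at the 22 positions where the 3 genes are not all alike. It lies in exon 3 of each gene, on the minus strand of chromosome 17 (GRCh38): chr17:41584323-41584412 for KRT14, chr17:41611411-41611500 for KRT16 and chr17:41622421-41622510 for KRT17.
KRT14: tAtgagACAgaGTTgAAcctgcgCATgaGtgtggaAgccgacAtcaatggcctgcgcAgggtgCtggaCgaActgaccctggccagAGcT
KRT16: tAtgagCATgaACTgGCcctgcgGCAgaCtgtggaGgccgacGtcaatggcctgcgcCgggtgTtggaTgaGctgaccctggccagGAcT
KRT17: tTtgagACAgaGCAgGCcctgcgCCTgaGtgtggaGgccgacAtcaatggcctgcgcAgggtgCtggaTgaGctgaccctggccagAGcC
KRT14 has a letter of its own at 7 of these positions, KRT16 at 12 and KRT17 at 3. The 3 genes had unlike ratios: KRT14 was 7.13-fold lower, KRT17 was 1.24-fold lower, and KRT16 had a ratio of 1.10. Summed over the 3 genes, the counts were 6011 and 4671, 1.27-fold lower (1.22 to 1.32), a sum that KRT17 dominates.

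Of the 5 suprabasal keratins of stress and wounding, KRT17 was lower by the most and the other 4 had log2 ratios of (CPM + 1) from -0.11 to 0.13. KRT17 (ENSG00000128422) had 5335 and 4238 counts, 194 and 157 CPM, and was 1.24-fold lower (1.19 to 1.29). KRT16 (ENSG00000186832), the usual partner of KRT6A, had 358 and 389 counts, 13.1 and 14.4 CPM. Its ratio of 1.10 (0.952 to 1.28) has an interval that includes 1, and its TPM ratio was 1.33, with a count per TPM, relative to the median expressed gene, 0.890 times as large as in the control. KRT6A (ENSG00000205420), a type II keratin induced in wounds, had 2754 and 2524 counts, 100.4 and 93.3 CPM, and a ratio of 0.929 (0.880 to 0.981), and its TPM ratio was 0.996. KRT6B had 5.40 and 5.17 CPM and 3.31 and 3.39 TPM. The intervals of KRT6B (148 and 140 counts, ratio 0.959, 0.756 to 1.22) and KRT6C (56 and 61 counts, ratio 1.10, 0.756 to 1.62) include 1. Of these 5 genes only KRT17 and KRT6A had intervals below 1 with TMM factors, and the median log2 ratio of the 5 was -0.05. With total count scaling the log2 ratio was -0.25 for KRT17 and -0.04 for KRT6A, so the difference of KRT6A depends on the scaling.

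The 3 KRT6 genes lie side by side on chromosome 12 and are near copies, so the split of reads between them is uncertain. Their coding sequences, each of 1692 bases, were 98.5% identical between KRT6B and KRT6C, 97.9% between KRT6A and KRT6C and 97.5% between KRT6A and KRT6B. Of the windows of 150 bases, 9.25% of those in KRT6A, 12.8% in KRT6B and 16.5% in KRT6C occur letter for letter in another KRT6 gene. The 90-base coding window in which KRT6A has the most letters of its own shows how few positions separate them, with capitals at the 10 positions where the 3 are not all alike. It lies in exon 2 on the minus strand of chromosome 12 (GRCh38), at chr12:52491532-52491621 for KRT6A, chr12:52450416-52450505 for KRT6B and chr12:52472076-52472165 for KRT6C.
KRT6A: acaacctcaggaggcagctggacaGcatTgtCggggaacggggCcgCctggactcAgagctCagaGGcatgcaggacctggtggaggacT
KRT6B: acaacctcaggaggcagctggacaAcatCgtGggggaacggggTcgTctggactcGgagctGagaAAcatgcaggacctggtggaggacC
KRT6C: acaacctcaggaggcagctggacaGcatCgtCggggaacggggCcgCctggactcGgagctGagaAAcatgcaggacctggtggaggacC
In this window KRT6A has 6 letters of its own, KRT6B 4 and KRT6C 0. Elsewhere in the coding sequence some windows of this length have 0 differing positions. The count summed over the 3 genes does not depend on how reads were divided among them. It can depend on whether reads that match more than 1 gene were dropped or counted repeatedly, which is not stated. The summed count was 2958 and 2725, 1.07-fold lower (1.02 to 1.13), and the summed TPM was 65.4 and 65.5.

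Of the keratins of suprabasal differentiation and related epithelial keratins, 3 of 15 were expressed and all 3 were lower in CPM. KRT80 (ENSG00000167767), a type II epithelial keratin, was the most abundant of them in TPM, with 28910 and 21320 counts, or 1054 and 788 CPM. It was 1.34-fold lower (1.31 to 1.36), and in TPM, at 381 and 305, 1.25-fold lower. KRT10 (ENSG00000186395), the type I keratin of differentiating epidermis, had 1316 and 1081 counts, 48.0 and 39.9 CPM, and was 1.20-fold lower (1.11 to 1.30). KRT10 shares 56 exon bases, 2.61% of its own, with TMEM99 on the opposite strand, which had 437 and 371 counts. KRT78 (60 and 51 counts, ratio 0.862, 0.581 to 1.27) has an interval that includes 1. KRT1, the type II partner of KRT10, had 0 counts in both libraries, as did KRT4, the type II keratin of suprabasal oral mucosa, and the type I partner of KRT4, KRT13, had 13 and 5 counts. KRT10 was thus the only 1 of these 4 partner genes at 1 CPM or more.

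The simple keratins KRT8 and KRT18 were the most abundant pair, and both were lower by a like amount. KRT8 (ENSG00000170421), type II, had 93492 and 65533 counts, 3408 CPM (3386 to 3430) and 2422 CPM (2403 to 2440), and was 1.41-fold lower (1.39 to 1.42). KRT18 (ENSG00000111057), its type I partner, had 62000 and 46102 counts, 2260 CPM (2242 to 2278) and 1704 CPM (1688 to 1719), and was 1.33-fold lower (1.31 to 1.34). In TPM the same genes were 1.38-fold and 1.23-fold lower. The files give KRT8 as chromosome 12, 52897187 to 52949882, minus strand, and KRT18 as 52948871 to 52952901, plus strand, so the gene bodies overlap at their starts. In GENCODE 29, where the start or end of KRT8 differs from that in the files, annotated exons share 525 bases. These are 7.63% of those of KRT8 and 16.3% of those of KRT18. The sources used here do not say whether counting used strand, and without it reads there can be counted for either gene. GENCODE 29 also lists 50 pseudogenes named for KRT8 and 67 for KRT18. No 150-base window of either main transcript occurs letter for letter in a keratin pseudogene transcript, while 41.3% and 31.8% of the 50-base windows occur in another keratin gene or pseudogene.

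KRT7 (ENSG00000135480, chromosome 12, 52233114 to 52248921, plus strand), a type II keratin of glandular and other simple epithelia, was the other member past 2-fold. In GENCODE 29 its exons share 282 bases, 6.89% of its own, with the antisense gene KRT7-AS. The start or end of KRT7 there differs from that in the files. KRT7 had 2121 and 834 counts, or 77.3 CPM (74.1 to 80.7) and 30.8 CPM (28.8 to 33.0), and was 2.51-fold lower (2.31 to 2.72). In TPM, at 61.9 and 26.5, it was 2.34-fold lower, and its TPM ranked 6 and 8 among the keratins. Its count per TPM, relative to the median expressed gene, was 0.999 times that of the control. Of the other simple keratins, KRT19 had 19 and 8 counts, which is below 1 CPM, and KRT20 had 0 counts in both libraries.

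**Figure D2:**
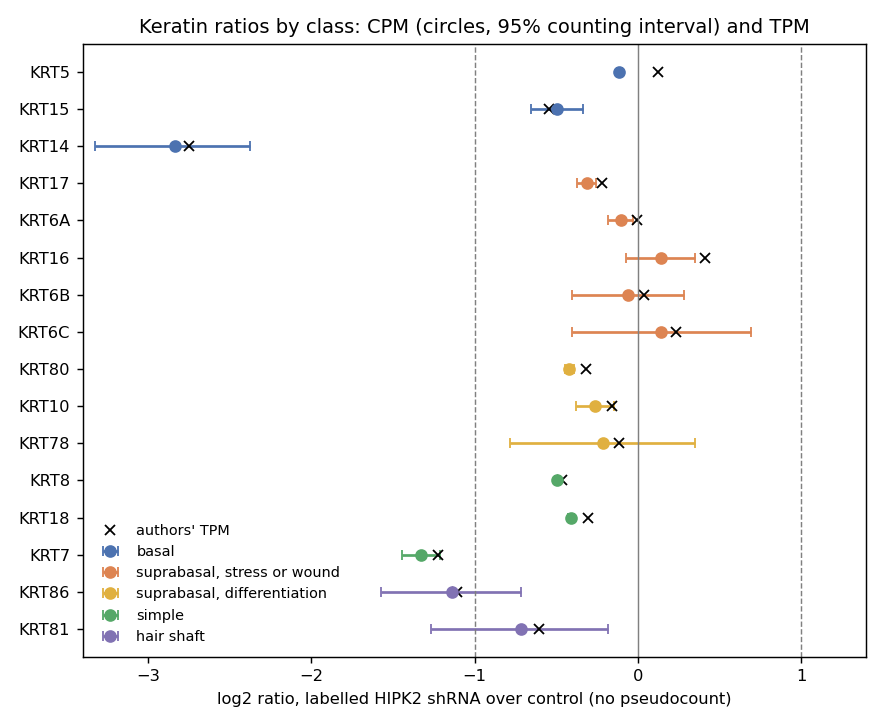
Log2 ratio of each expressed keratin, HIPK2 shRNA-labelled library over control, without a pseudocount, grouped by class (colours). Circles with 95% counting intervals are CPM, crosses are the authors' TPM, and dashed lines mark 2-fold. KRT14 and KRT7 lie left of the lower 2-fold line in both units, KRT86 does so with an interval that crosses the line, and KRT5 has a circle below 0 and a cross above it.

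Of the 17 hair shaft keratins, the type II genes KRT86 and KRT81 reached 1 CPM, and both were lower. KRT86 had 152 and 68 counts, 5.54 and 2.51 CPM, and was 2.20-fold lower (1.65 to 2.98), with 3.65 and 1.70 TPM. Its log2 ratio of (CPM + 1) was -0.90, short of the 2-fold rule, since the pseudocount understates ratios of low genes. KRT81 had 80 and 48 counts and was 1.64-fold lower (1.14 to 2.40). KRT83, with 21 and 11 counts, stayed under 1 CPM. KRT81 and KRT86 are 90.1% identical in coding sequence, and 25.6% of the 150-base windows of KRT81 and 22.1% of those of KRT86 occur in the other gene. Summed over the 3 genes the counts were 253 and 127, 1.97-fold lower (1.58 to 2.45).

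The other 39 keratins were under 1 CPM in both libraries. Of these, 28 had 0 counts in both, and the intervals of a count of 0 reach 0.134 CPM and 0.136 CPM in the respective libraries. The floor of 3 counts used for ratios is 0.109 CPM and 0.111 CPM. The highest count among the 39 was the 21 of KRT83. Beside KRT19 and KRT13 above, KRT75 had 14 and 8 counts (ratio 0.579, 0.211 to 1.48) and KRT3 had 4 and 4 (ratio 1.01, 0.189 to 5.44). Both intervals include 1. The remaining members with counts were KRT32 (5 and 0), KRT9 (2 and 0), KRT84 (2 and 0), KRT34 (0 and 9), KRT33B (0 and 4) and KRT77 (0 and 2). Each of these had 0 counts in a library, and ratios were given only above a floor of 3 counts in both. All 9 hair root sheath keratins were under 1 CPM, and 8 of them had 0 counts. KRT12 and KRT2, keratins of cornea and of upper epidermis, were among the genes with 0 counts, as was KRT222, a type I relative outside the classes.

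Because filaments take the types in equal number, levels were also summed by type in TPM, which is per transcript length. Type I keratins summed to 2278 TPM in the control and 1856 TPM in the HIPK2 shRNA-labelled library, and type II keratins to 5063 and 4289 TPM. Type I made up 31.0% of keratin TPM under control shRNA and 30.2% in the HIPK2 shRNA-labelled library. Type II mRNA was thus in excess in both libraries. In CPM, type I was 1.32-fold lower (1.30 to 1.33) and type II 1.26-fold lower (1.25 to 1.27).

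KRT8, KRT5 and KRT18 together held 89.5% and 89.9% of keratin TPM. KRT5 went from 22.1% to 28.7% of keratin TPM, KRT8 from 39.8% to 34.5% and KRT18 from 27.6% to 26.7%. Of the summed keratin counts, which are not per length, KRT5 took 27.7% and 32.6%. The basal class went from 22.4% to 28.9% of keratin TPM and the simple class from 68.2% to 61.6%, while the suprabasal class took 9.24% and 9.39%. Of keratin counts, the basal class took 28.1% and 32.9% and the simple class 57.6% and 53.0%. These shares move against each other by construction, and that of the basal class rests on KRT5.

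**Figure D3:**
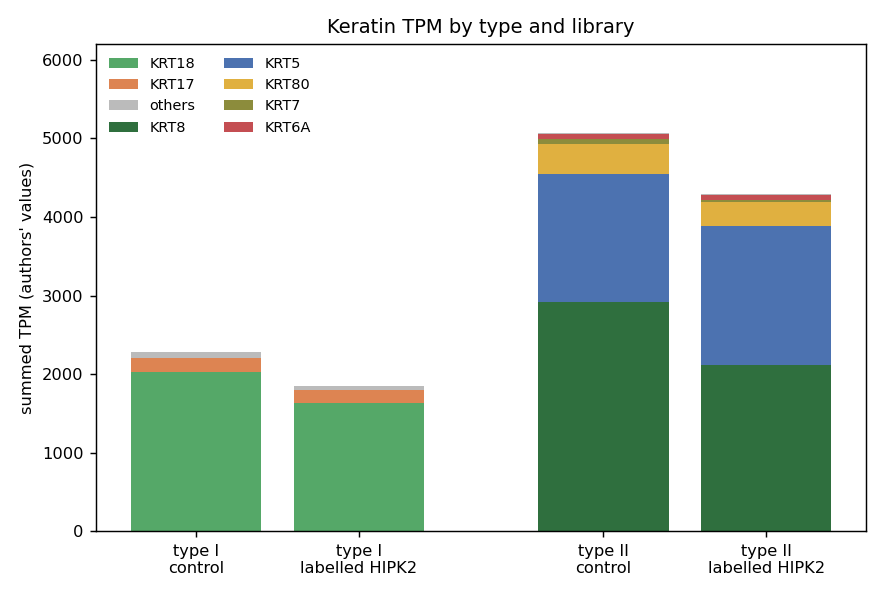
Summed TPM (authors' values) of type I and type II keratins in each library, stacked by gene, with the genes of lower level grouped as others. Type II stands at 5063 and 4289 TPM against 2278 and 1856 TPM for type I, and KRT5 (blue) is the one large segment that is taller in the HIPK2 shRNA-labelled library.

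The textbook pairs differed widely in how their members were balanced. KRT8 had 1.44 times the TPM of KRT18 in the control and 1.29 times in the HIPK2 shRNA-labelled library. KRT6A had 4.92 and 3.69 times the TPM of KRT16. KRT6B had 0.0183 and 0.0218 times the TPM of KRT17. KRT5 had 166 times the TPM of KRT14 under control shRNA and 1216 times in the HIPK2 shRNA-labelled library, where KRT14 had 44 counts. The most abundant type I keratins beside KRT18 were KRT17, at 181 and 155 TPM, and KRT10, at 37.0 and 33.2 TPM, so KRT14 was not the main type I keratin in either library.

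Along the chromosome 12 cluster, KRT7 and KRT86, the genes with the lowest ratios there, follow each other by start position among the expressed members. With a pseudocount of 5 CPM, however, KRT8 and KRT86 were both at -0.49. The deposited interval of KRT86 (52249300 to 52309163, plus strand) encloses that of KRT81 (52285913 to 52291534, minus strand). The order of KRT86 and KRT81 therefore rests on their starts alone. In gene order the log2 ratios of (CPM + 1) were -0.42 for KRT80, -1.30 for KRT7, -0.90 for KRT86 and -0.50 for KRT81, then -0.05 for KRT6B, 0.10 for KRT6C, -0.11 for KRT6A, -0.12 for KRT5 and -0.14 for KRT78, and at the far end -0.49 for KRT8 and -0.41 for KRT18. KRT81 and KRT86 can exchange reads, so they are not separate measurements. On chromosome 17 the genes beside KRT14 (log2 ratio -2.26) were KRT15 at -0.48 and KRT16 at 0.13, so the low ratio of KRT14 was not shared by its expressed neighbours.

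**Figure D4:**
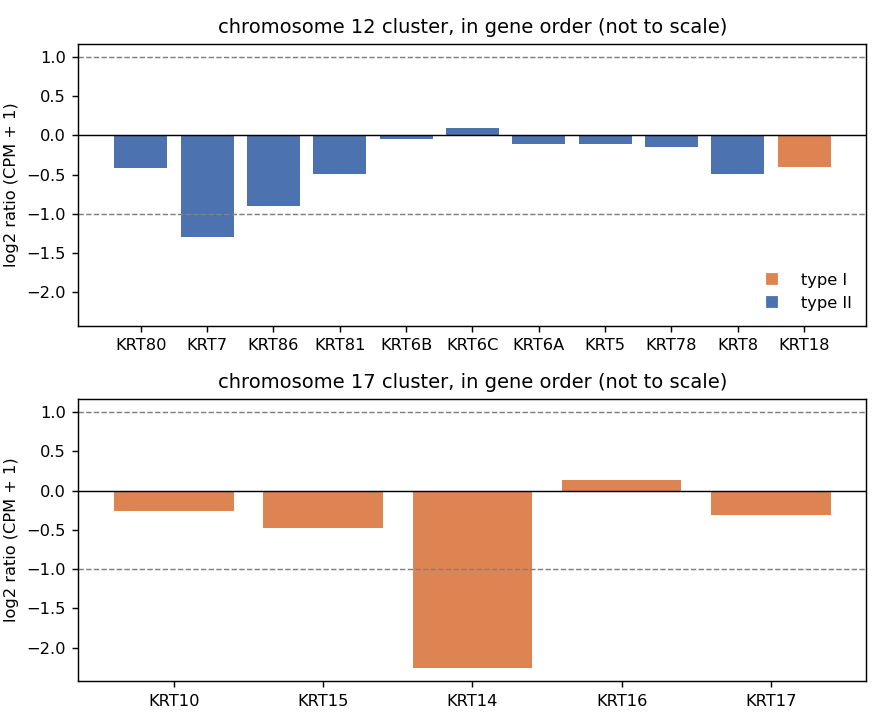
Log2 ratio of (CPM + 1), HIPK2 shRNA-labelled library over control, of the expressed keratins in gene order along the chromosome 12 cluster (top) and the chromosome 17 cluster (bottom), with type I in orange, type II in blue and dashed lines at 2-fold. Genes are ordered by start position and spacing is not to scale. KRT81 lies within the deposited interval of KRT86. KRT80 to KRT81 and KRT8 to KRT18 are lower, the genes from KRT6B to KRT78 are near 0, and KRT14 stands alone on chromosome 17.

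For the genes that work with keratins, the shares over all expressed genes are again 50.0% lower, 3.26% past 2-fold higher and 2.87% past 2-fold lower. Of 14 genes of keratin attachment and cross-linking 13 were expressed. Of these, 8 were higher and 5 lower, 0 were past 2-fold, and the median log2 ratio was 0.08. The largest differences were those of the plakin genes DST, which anchors keratins at hemidesmosomes, at 0.70, DSP, which anchors them at desmosomes, at 0.47, and PPL, periplakin, at -0.45. Of 17 other intermediate filament genes 10 were expressed, with 7 higher, 3 lower and a median of 0.36. In this list VIM (18 and 73 counts, log2 ratio 1.16), the mesenchymal filament gene, was past 2-fold, and NES (12 and 45 counts) and NEFL (8 and 35 counts) were at 0.89 and 0.83, all under 3 CPM. Without the pseudocount the ratios were 4.11 (2.43 to 7.32) for VIM, 3.80 (1.98 to 7.90) for NES and 4.44 (2.02 to 11.1) for NEFL. Of 15 transcription factor genes linked to keratin promoters 14 were expressed. The median of these 14 was 0.05, 9 being higher, 5 lower and 0 past 2-fold. TP63, a master regulator of stratified epithelium named here after its value was seen, had 1703 and 1752 counts. The largest differences were those of CEBPA at 0.92, NFE2L2 at -0.78 (-0.29 in TPM) and GRHL2 at 0.30.

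All 8 markers of squamous epithelium had counts in both libraries, with a summed level of 4477 and 3815 CPM that KRT5 dominates. Apart from KRT14, CDH1 was the marker past 2-fold, at 184 and 87.2 CPM. In TPM, at 52.8 and 29.9, its ratio was 0.567, which is short of 2-fold. Of markers of other cell types, PTPRC, CD3E, PECAM1, KDR, DCN, TYR and DCT had 0 counts in both libraries, and so had all markers of skeletal muscle and of salivary gland. The summed level was 29.6 and 25.9 CPM for leukocyte markers, 18.2 and 21.5 CPM for fibroblast markers and 56.1 and 28.5 CPM for endothelial markers, the last nearly all from CDH5 (1513 and 740 counts). Melanocyte markers summed to 2.11 and 2.77 CPM, nearly all from PMEL (58 and 73 counts). The part of these levels in the keratin ratios was not tested.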

How the data were processed

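RNA-seq libraries of Cal-27 cells were sequenced as paired-end reads of 150 bp, per the labels' protocols. The submitters' processing notes name TopHat2 2.1.1, FastQC and the build GRCh38. The counting tool, its annotation and its strand setting are not stated there or in the labels. Each gene has a count, a TPM and an FPKM from the authors, per the file headers. The deposited counts are whole numbers and not normalized, the deposited TPM was used for levels per length, and the deposited FPKM was not used for any value.

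Counts were scaled to CPM with TMM factors (0.977 and 1.02) from edgeR 4.0.16 in R 4.3.3. A single library per group allows no edgeR test. Expressed means 1 CPM or more in a library. Log2 ratios use a pseudocount of 1 CPM, and ratios without it carry exact Clopper-Pearson intervals, given the summed counts of both libraries. Levels carry exact Poisson intervals and shares exact binomial intervals, from scipy 1.17.1. These reads carry no molecular identifiers, so intervals and floors cover counting error only. Alternatives were other pseudocounts, filters, scalings (total count, DESeq2 1.42.0), the TPM, a 1.5-fold rule and related genes summed. The related genes were KRT6A with KRT6B and KRT6C, KRT14 with KRT16 and KRT17, and KRT81 with KRT83 and KRT86.

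Genes of the family were described when expressed, with full values at 5 CPM or past 2-fold. Companion lists were described by members past 2-fold at 5 CPM, or else by the 3 largest differences. Members, classes and lists were chosen with earlier results of these data known. All 55 keratin IDs matched GENCODE 29, 48 with the same start and end, so positions are those of the files. Coding sequences came from the GENCODE 29 transcripts (the longest coding transcript of a gene) and were aligned with Biopython 1.88.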

Additional observations from a re-analysis of the deposited data

How the results depend on the processing

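Leaving out a replicate was not possible with single libraries. No paired analysis was possible because there is just 1 library under each label. The count of 2 keratins past 2-fold lower was 1 when related genes were summed, since KRT14 then merges with KRT16 and KRT17. These genes are 72.6% to 85.2% identical in coding sequence. KRT17, with 5335 and 4238 counts, outweighs the 318 and 44 counts of KRT14 in that sum. The count was 3 with a pseudocount of 0.1 CPM or a 1.5-fold rule, KRT86 being the third. The same 2 genes were past 2-fold under the other 6 settings, and 0 were past 2-fold higher in any setting. With related genes summed, 11 of 11 units were lower. Over the settings run the median ran from -0.41 to -0.24 for all keratins, from -0.37 to -0.26 for type I, from -0.42 to -0.14 for type II and from -0.26 to -0.03 for suprabasal keratins. KRT14 ran from -2.76 to -1.32 and KRT7 from -1.32 to -1.19. The basal median was -0.30 with related genes summed, a setting that leaves KRT14 out of the class and keeps 2 genes, KRT5 and KRT15. The simple median was -0.45 with no filter, -0.43 with total count scaling and -0.46 in TPM. The type I share was 25.6% and 24.7% (control first) when taken from counts, and 10.6% and 9.09% of TPM without the highest keratin of each type. KRT5 reversed in TPM (0.12), and KRT6B reversed in TPM (0.027) and with total count scaling (0.0045); the cause was not tested. KRT16 and KRT6C were higher in every setting that kept them as single genes, and the other 12 expressed keratins lower. Depth limits what can be said of the 39 keratins under 1 CPM, the highest of which had 21 counts.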

Other observations

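The keratin-associated protein genes, which encode the matrix of hair keratins, were nearly silent. Of 94 KRTAP genes listed, 82 had 0 counts in both libraries and 2 reached 1 CPM. KRTAP2-3 had 38 and 16 counts, 2.34-fold lower (1.28 to 4.50) in the HIPK2 shRNA-labelled library, and KRTAP4-1 had 36 and 10 counts, 3.55-fold lower (1.73 to 8.02). Both lie in the chromosome 17 cluster among the type I keratins. GRHL3, a transcription factor of epidermal differentiation, had 17 and 0 counts, and the interval of a count of 0 reaches 0.136 CPM in that library. The nuclear lamin genes, which belong to the same protein superfamily as keratins, had log2 ratios of -0.29 (LMNA), 0.08 (LMNB1) and 0.04 (LMNB2). These genes were singled out after their values were seen.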
